A study of Mus musculus with 26 samples.

Results

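The route that makes, takes up and exports cholesterol was followed through 28 genes in livers of ob/ob and C57BL6 mice. The list holds 8 early enzymes that lead from acetyl-CoA to the isoprenoid diphosphates, 11 late enzymes that lead from these through squalene to cholesterol, 4 regulators and 5 genes of transport. A gene was taken in through the array annotation's symbol or a current alias, and a probe was tested where 4 or more of the 26 arrays detected it at p under 0.01. On this rule 24 of the 28 genes had a tested probe, among 7968 named genes tested in all. Of the other genes, Mvk (mevalonate kinase) and Fdft1 (squalene synthase) had no named probe in the annotation used here, the 2 probes of Ggps1 (geranylgeranyl diphosphate synthase) were detected on 0 arrays and the probe of Abca1 (the transporter that loads cholesterol onto nascent high-density lipoprotein) on 2 arrays. Acat2, Lss and Mvd are also among the genes that the study had selected on these same arrays, so their direction is not independent evidence.

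Hepatocytes build cholesterol from acetyl-CoA by way of mevalonate, isoprenoid diphosphates, squalene and lanosterol, in the cytosol, the endoplasmic reticulum and peroxisomes. When membrane sterol is low, the escort protein SCAP carries SREBP-2, the transcription factor encoded by Srebf2, to the Golgi, where it is cleaved and released to switch on most enzymes of the route, while the INSIG proteins hold SCAP in the endoplasmic reticulum when sterol is plentiful. The liver disposes of cholesterol through lipoproteins, bile acids and direct secretion into bile.

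Each of 26 mice gave liver RNA for 1 Illumina MouseRef-8 v2.0 BeadChip array. The ob/ob mice lack functional leptin and were females on the C57BL6 background, 15 weeks old when an osmotic mini-pump began to deliver leptin or vehicle for 12 days. The study asked how leptin given by different routes changes liver expression along with weight. The groups were LEP_SQ, 4 mice given 10 µg/d of leptin under the skin, and VEH_SQ, 4 mice given saline under the skin. LEP_ICV were 4 mice given 1.5 µg/d of leptin into a brain ventricle that lost weight, LEP_ICVN 4 mice assigned the same infusion that lost no weight, and VEH_ICV 4 mice given artificial cerebrospinal fluid there. B6 were 6 C57BL6 mice at baseline, of unstated sex and age. All 6 are baseline mice by their labels, whereas the study's gene sheet names B6_2021, B6_2029 and B6_2035 as aCSF (artificial cerebrospinal fluid), so whether these 3 were infused is not known, which touches every comparison with B6. Because the study could not establish the cannula placement of part of LEP_ICVN, it is not known which of these 4 brains leptin reached, and because LEP_ICV was picked by its weight loss, a difference from LEP_ICVN compares outcomes as well as infusions. Whole liver was used, so fewer cells of a type and less RNA per cell cannot be told apart.

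The values are normalized log2 intensities, and a change is a difference between group means on that scale unless it is called a fold. The median raw signal of probes at background level was 160.6 to 197.9 on 14 arrays, called the high background class here, and 105.5 to 122.4 on the other 12, called the low class. All LEP_SQ and B6 arrays were in the high class, and all VEH_SQ and VEH_ICV arrays in the low class, so in LEP_SQ against VEH_SQ, and in vehicle-treated ob/ob against B6, class and group cannot be told apart. Single mice are named by group and number. In the high class were LEP_ICV_1017, LEP_ICV_1019, LEP_ICVN_1001 and LEP_ICVN_1008, and in the low class LEP_ICV_1003, LEP_ICV_1014, LEP_ICVN_1004 and LEP_ICVN_1016. Each comparison is therefore given from a limma model of the 6 groups and again with class as a block, which for the comparisons that class splits rests on the LEP_ICV and LEP_ICVN arrays alone. By limma's moderated F test across the 6 groups, 21 of the 24 tested genes differed at an adjusted p under 0.05, against 69.5% of all tested genes. Srebf2, Abcg5 and Abcg8 did not pass it. With the block the share of all tested genes was 24.2%, and the 21, counted without the block, are not to be set against it.

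Promoter windows were available for 20 of the 24 tested genes, taken from RefSeq on GRCm38.p6, each of 300 bases that span a gene's start. Those of Hmgcs1, Mvd, Lss, Msmo1 and Nsdhl are shown because these enzymes moved together below, and that of Abcg5 because it did not pass any test below; capitals mark CCAAT or its complement ATTGG, the core of the NF-Y site, and in Hmgcs1 also a match to TCACNCCAC, a form of the sterol regulatory element.
Hmgcs1, chr13:119690101-119690400, plus strand: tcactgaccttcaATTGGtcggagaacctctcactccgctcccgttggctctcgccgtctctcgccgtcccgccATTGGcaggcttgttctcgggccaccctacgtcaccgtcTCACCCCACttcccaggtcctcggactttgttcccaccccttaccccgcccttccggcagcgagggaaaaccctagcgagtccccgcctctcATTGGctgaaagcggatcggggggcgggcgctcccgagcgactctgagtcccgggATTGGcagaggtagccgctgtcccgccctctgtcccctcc
Mvd, chr8:122443373-122443672, minus strand: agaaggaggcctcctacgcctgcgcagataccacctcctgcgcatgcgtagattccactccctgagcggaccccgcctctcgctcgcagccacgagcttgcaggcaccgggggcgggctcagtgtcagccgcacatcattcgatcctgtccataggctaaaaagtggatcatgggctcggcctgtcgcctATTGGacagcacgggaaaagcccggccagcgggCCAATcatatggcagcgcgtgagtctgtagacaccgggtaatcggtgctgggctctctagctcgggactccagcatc
Lss, chr10:76531355-76531654, plus strand: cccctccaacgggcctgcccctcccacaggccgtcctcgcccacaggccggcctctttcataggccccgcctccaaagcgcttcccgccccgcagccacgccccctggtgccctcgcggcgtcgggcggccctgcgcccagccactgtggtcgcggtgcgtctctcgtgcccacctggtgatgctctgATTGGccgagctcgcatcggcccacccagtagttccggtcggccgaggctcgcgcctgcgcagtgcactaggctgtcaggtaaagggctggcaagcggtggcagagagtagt
Msmo1, chr8:64733529-64733828, minus strand: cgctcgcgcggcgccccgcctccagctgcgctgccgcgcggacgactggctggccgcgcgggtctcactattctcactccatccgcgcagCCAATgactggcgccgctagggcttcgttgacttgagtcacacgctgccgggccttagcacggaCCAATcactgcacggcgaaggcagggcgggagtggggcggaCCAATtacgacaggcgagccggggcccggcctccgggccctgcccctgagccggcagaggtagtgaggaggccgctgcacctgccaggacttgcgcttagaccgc
Nsdhl, chrX:72918271-72918570, plus strand: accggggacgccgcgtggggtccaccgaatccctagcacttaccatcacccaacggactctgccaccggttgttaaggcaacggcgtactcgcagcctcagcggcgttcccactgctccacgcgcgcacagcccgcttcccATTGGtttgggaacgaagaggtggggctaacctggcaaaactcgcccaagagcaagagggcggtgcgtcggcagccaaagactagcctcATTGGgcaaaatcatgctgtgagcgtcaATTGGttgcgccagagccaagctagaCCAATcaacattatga
Abcg5, chr17:84682962-84683261, minus strand: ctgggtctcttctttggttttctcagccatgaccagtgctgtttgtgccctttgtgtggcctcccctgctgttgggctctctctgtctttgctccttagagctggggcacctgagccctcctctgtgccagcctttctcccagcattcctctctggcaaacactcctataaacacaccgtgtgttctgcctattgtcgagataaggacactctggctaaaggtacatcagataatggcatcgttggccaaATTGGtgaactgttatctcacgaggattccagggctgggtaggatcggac
On both strands, CCAAT was found in 18 of the 20 genes, all but Acat2 and Scap, against 41.1% of the 27025 genes with a window, or 37.4% of the 32851 windows. TCACNCCAC was found only in Hmgcs1 among the 20, against 1.44% of genes with a window, or 1.24% of windows. GGGCGG, the GC box that Sp1 binds, was found in 17 of the 20 genes, all but Abcg5, Abcg8 and Pmvk. The share was 38.2% of genes with a window, or 35.7% of windows. The windows of Abcg5 and Abcg8, which lie head to head, share 209 bases. These matches are letters in a window and were not tested for binding.

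Leptin infused into the ventricle came with lower levels across the route in the mice that lost weight. Against VEH_ICV, 15 of the 24 genes were lower in LEP_ICV and none was higher, where 25.2% of all tested genes were called in either direction and 11.6% lower. All 6 early enzymes were lower, 7 of 10 late enzymes, 1 of 4 regulators and 1 of 4 transport genes. The median change was −1.59 over the 24 genes and 0.01 over all tested genes. With class as a block 15 genes were again lower, where 12.8% of all tested genes were called and 5.43% lower, and among the low-class arrays alone, 2 LEP_ICV against 4 VEH_ICV, 11 genes were lower, where 2.61% were.

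Among the early enzymes, Acat2 makes acetoacetyl-CoA in the cytosol. Its level was 8.92, 8.33, 8.47 and 8.93 in LEP_ICV, against 10.44, 10.37, 10.39 and 10.42 in VEH_ICV, so that every LEP_ICV mouse lay below every VEH_ICV mouse. The change was −1.74 ± 0.24 (SE, n = 4 each, limma adjusted p = 2.6e-05). The probe took its name from the study's own gene sheet and may also bind the paralog Acat3. Hmgcs1, the cytosolic HMG-CoA synthase, averaged 13.76 ± 0.67 in LEP_ICV and 15.52 ± 0.16 in VEH_ICV (SD, n = 4 each), a change of −1.76 ± 0.29 (SE, limma adjusted p = 2.5e-04). Its signal reached 90% of the array's highest on 2 arrays, neither of them in these groups.

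Pmvk, phosphomevalonate kinase, was at 5.27, 5.53, 5.94 and 5.11 in LEP_ICV, where only LEP_ICV_1017 passed detection, against 7.21, 7.01, 6.67 and 6.82 in VEH_ICV, where the last 2 did not pass. The groups did not overlap, and the change was −1.47 ± 0.37 (SE, limma adjusted p = 0.0072), but −0.19 with the lumi values, the log2 values deposited after another background treatment and normalization (limma adjusted p = 0.33). Mvd, which decarboxylates mevalonate diphosphate, was at 7.30, 5.97, 5.48 and 4.88 in LEP_ICV, with only LEP_ICV_1003 detected, against 9.36, 9.74, 9.62 and 9.19 in VEH_ICV. This is a change of −3.57 ± 0.52 (SE, limma adjusted p = 4.9e-05) against levels mostly not detected, and of −1.48 with the lumi values (0.0035).

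The last early steps were lower too. Idi1, which interconverts the isoprenoid diphosphate isomers, averaged 6.91 ± 1.74 in LEP_ICV and 10.22 ± 0.19 in VEH_ICV (SD, n = 4 each), a change of −3.30 ± 0.57 (SE, limma adjusted p = 3.5e-04). The wide LEP_ICV spread comes from LEP_ICV_1003 at 9.42, while the other mice lay between 5.38 and 6.46. Fdps, farnesyl diphosphate synthase, averaged 8.86 ± 0.59 in LEP_ICV and 10.86 ± 0.99 in VEH_ICV, which was 4.0-fold lower (limma adjusted p = 0.013, and 0.057 without VEH_ICV_1010).

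**Figure D1:**
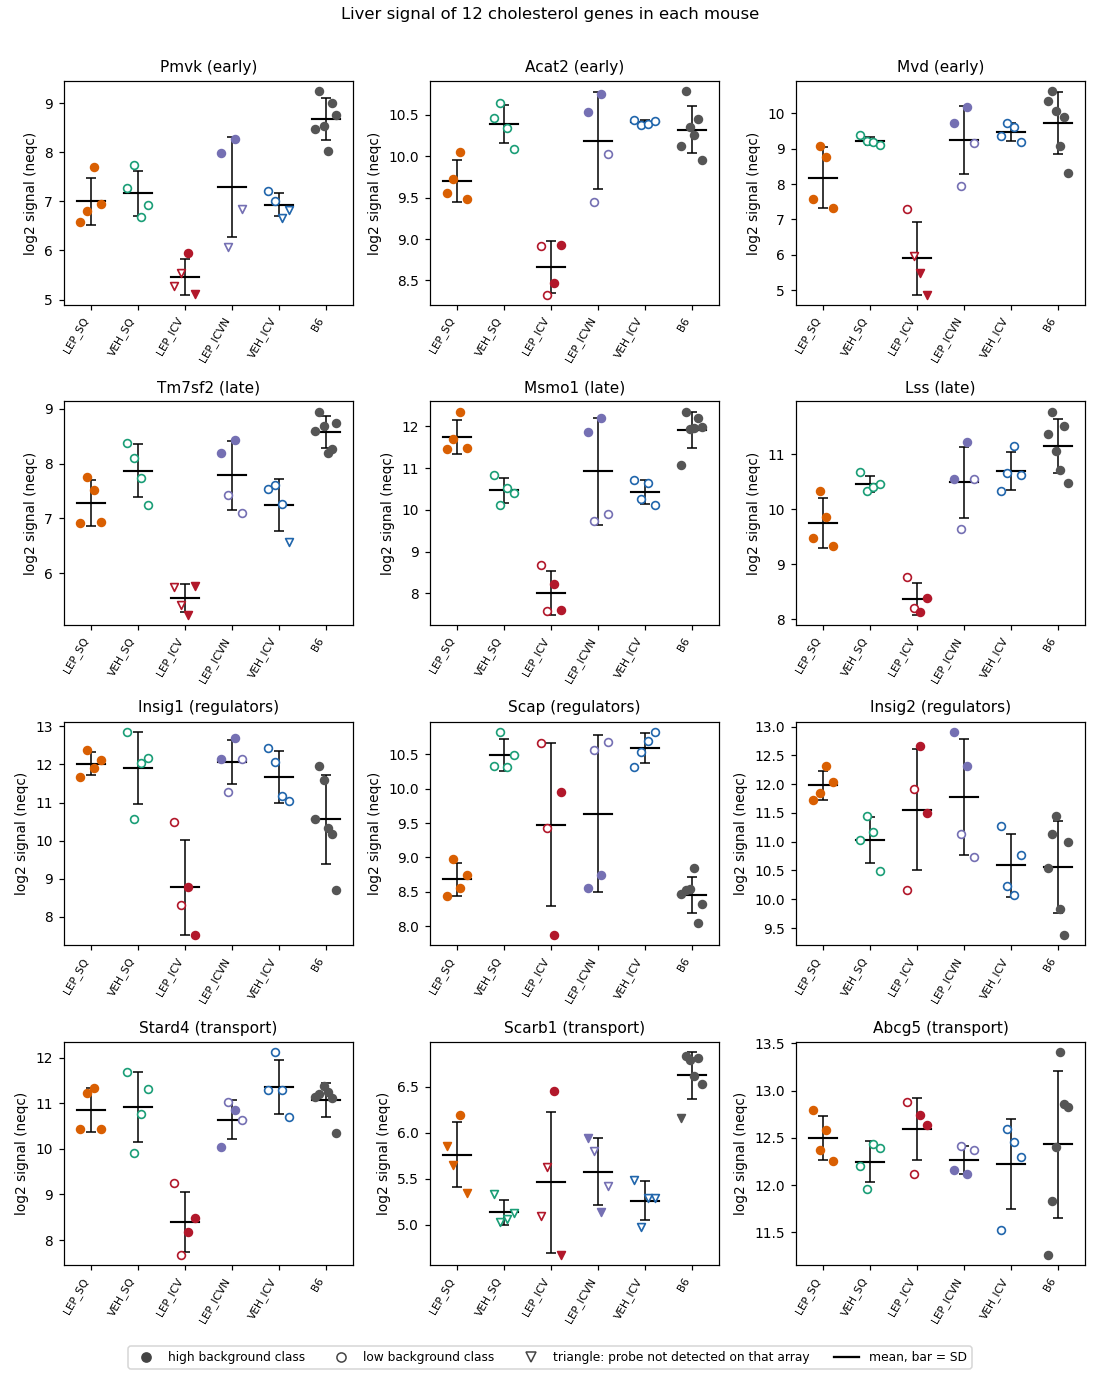
Normalized log2 intensity (y axis) of 12 of the genes in each mouse of the 6 groups (x axis); filled points are arrays of the high background class, open points the low class, triangles are not detected, and bars give the group mean ± SD. For Acat2, Lss and Msmo1 the LEP_ICV points lie below every VEH_ICV point in both background classes.

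Of the late enzymes, Sqle, squalene epoxidase, was at 7.14, 7.26, 7.46 and 6.46 in LEP_ICV, against 8.59, 8.77, 9.04 and 7.84 in VEH_ICV. The groups did not overlap, yet the change of −1.48 ± 0.53 (SE, limma adjusted p = 0.047) was at the edge of the threshold and was no longer called with the lumi values (−0.63, 0.29) or in 17 of 26 fits that each left out 1 mouse. With the block it was −2.15 (limma adjusted p = 0.0087). Lss, which cyclises the epoxide to lanosterol, was at 8.77, 8.20, 8.12 and 8.38 in LEP_ICV, against 10.33, 10.66, 11.16 and 10.62 in VEH_ICV. It was lower in every LEP_ICV mouse than in any VEH_ICV mouse, with a change of −2.33 ± 0.30 (SE, limma adjusted p = 1.5e-05), or 5.01-fold.

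Tm7sf2, a sterol reductase that acts after the lanosterol demethylase, was not detected in any LEP_ICV mouse, with readings of 5.75, 5.42, 5.24 and 5.76. In VEH_ICV it read 7.54, 7.60, 7.27 and 6.57, the last one not detected, which makes LEP_ICV at least 1.94-fold lower (limma adjusted p = 4.4e-04), but the change was −0.25 with the lumi values (0.14). Msmo1, the oxidase that starts removal of the remaining methyl groups, was detected on every array of both groups. Its levels were 8.67, 7.57, 8.21 and 7.60 in LEP_ICV, against 10.71, 10.25, 10.64 and 10.11 in VEH_ICV. The groups lay apart by more than either spread, with a change of −2.41 ± 0.42 (SE, limma adjusted p = 3.5e-04), or 5.33-fold.

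Nsdhl, the dehydrogenase of the same demethylation, was not detected in any LEP_ICV mouse. Its brightest probe read 6.52, 5.52, 5.47 and 6.27 in LEP_ICV, against 8.30, 8.47, 8.57 and 8.66 in VEH_ICV. LEP_ICV was thus at least 4.63-fold lower (limma adjusted p = 7.4e-06), while the change was −0.73 with the lumi values (0.0017). Hsd17b7, the keto reductase of this step, averaged 11.04 ± 0.18 in LEP_ICV and 12.03 ± 0.27 in VEH_ICV (SD, n = 4 each; change −0.99 ± 0.28 SE, limma adjusted p = 0.013). Dhcr7, the reductase that yields cholesterol from 7-dehydrocholesterol, averaged 6.54 ± 1.14 in LEP_ICV and 8.96 ± 0.62 in VEH_ICV (SD, n = 4 each; change −2.42 ± 0.54 SE, limma adjusted p = 0.0028).

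Cyp51, Ebp and Sc5d were the late enzymes not called in this comparison. Cyp51, the lanosterol demethylase, was detected on 1 array of each group and changed by −0.20 ± 0.85 (SE, limma adjusted p = 0.88), so both levels lay near the detection limit. Ebp, the sterol isomerase, averaged 10.20 ± 0.65 in LEP_ICV and 10.39 ± 0.52 in VEH_ICV (SD, n = 4 each), a difference with a 95% interval of −0.99 to 0.62. Sc5d, the desaturase before Dhcr7, averaged 6.37 ± 0.85 in LEP_ICV, where 2 arrays passed detection, and 6.23 ± 0.54 in VEH_ICV, where 0 did.

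Among the regulators, Insig1 was at 10.49, 8.32, 8.78 and 7.53 in LEP_ICV, against 12.43, 12.06, 11.17 and 11.03 in VEH_ICV. The groups did not overlap, and the brightest probe changed by −2.89 ± 0.60 (SE, limma adjusted p = 0.0017), or 7.43-fold, while within the low class it changed by −2.27 (limma adjusted p = 0.08). Insig2, the other INSIG protein, was at 10.16, 11.91, 12.66 and 11.50 in LEP_ICV, against 11.28, 10.23, 10.08 and 10.77 in VEH_ICV. These groups overlapped (change 0.97 ± 0.50 SE, limma adjusted p = 0.15). Scap was at 10.66, 9.43, 7.87 and 9.95 in LEP_ICV, against 10.32, 10.54, 10.69 and 10.83 in VEH_ICV, with the low value of LEP_ICV_1017 setting most of the spread (change −1.12 ± 0.45 SE, limma adjusted p = 0.069). Srebf2 averaged 6.95 ± 0.87 in LEP_ICV and 7.82 ± 0.41 in VEH_ICV (SD, n = 4 each; change −0.86 ± 0.40 SE, limma adjusted p = 0.11).

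Of the transport genes, Stard4, a soluble sterol carrier, was at 9.26, 7.67, 8.18 and 8.48 in LEP_ICV, against 11.29, 12.13, 11.30 and 10.70 in VEH_ICV. No LEP_ICV mouse reached the lowest VEH_ICV mouse, and the change was −2.96 ± 0.38 (SE, limma adjusted p = 1.1e-05), or 7.78-fold. Abcg5 and Abcg8 form the heterodimer that secretes sterol into bile. Abcg5 was at 12.88, 12.12, 12.74 and 12.64 in LEP_ICV, against 11.53, 12.59, 12.46 and 12.30 in VEH_ICV. The 2 groups overlapped, with a change of 0.37 and a 95% interval of −0.30 to 1.04. For Abcg8 the change was −0.02, with a 95% interval of −0.76 to 0.73. Scarb1, the receptor that takes cholesterol from high-density lipoprotein, was detected in LEP_ICV_1017 alone of these 8 mice, so no fold is given.

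**Figure D2:**
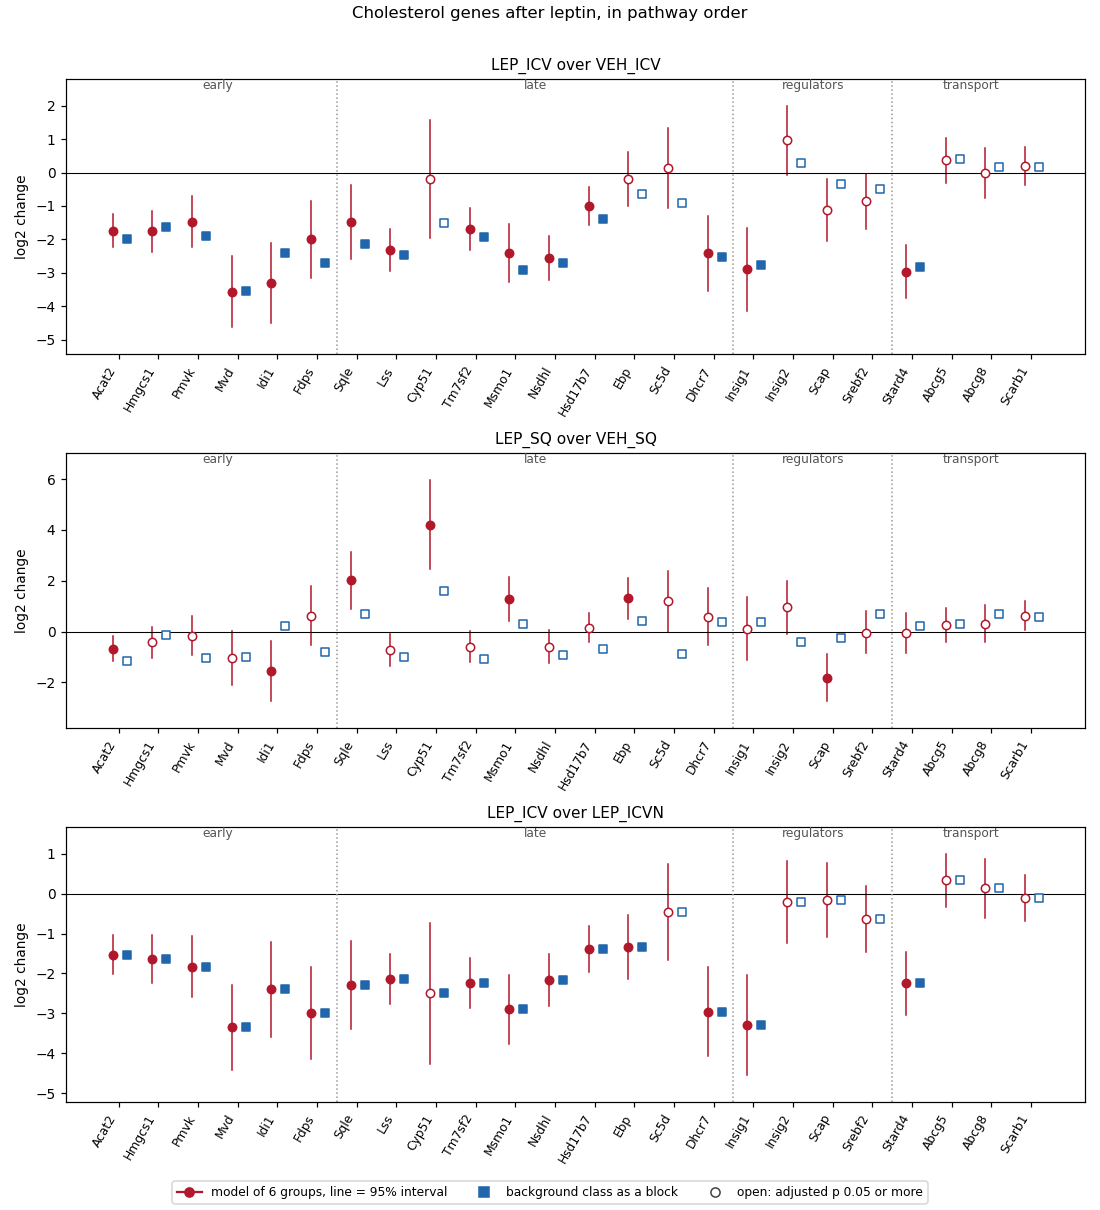
Log2 change (y axis) of the 24 tested genes (x axis, in pathway order) in LEP_ICV over VEH_ICV, LEP_SQ over VEH_SQ and LEP_ICV over LEP_ICVN; circles are the model of 6 groups with its 95% interval, squares the fit with background class as a block, and filled symbols passed an adjusted p of 0.05. In LEP_ICV over VEH_ICV both symbols lie below 0 for all 6 early enzymes, whereas in LEP_SQ over VEH_SQ no square is filled.

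The same enzymes separated the LEP_ICV mice from the mice assigned the same infusion that lost no weight. Against LEP_ICVN, 16 of the 24 genes were lower in LEP_ICV and none was higher, where 8.18% of all tested genes were called and 3.23% lower. The 16 were all 6 early enzymes, 8 of 10 late enzymes, Insig1 and Stard4. The median change was −1.98, against 0.03 over all tested genes. With the block 17 genes were lower, where 11.9% of all genes were called and 4.73% lower, the added one being Cyp51. This comparison and the one before share the LEP_ICV mice, so they are not separate evidence.

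In LEP_ICVN, Acat2 was at 10.53, 9.45, 10.75 and 10.02, all above the LEP_ICV mice given earlier (change −1.53 ± 0.24 SE, limma adjusted p = 2.2e-04). Mvd was at 9.72, 7.96, 10.17 and 9.15 in LEP_ICVN, again with no overlap (change −3.34 ± 0.52 SE, limma adjusted p = 2.1e-04). For Pmvk the LEP_ICVN readings were 7.99, 6.07, 8.26 and 6.85, of which those of LEP_ICVN_1004 and LEP_ICVN_1016 did not pass detection (change −1.83 ± 0.37 SE, limma adjusted p = 0.0025, and −0.36 with the lumi values, 0.12). These 3 early enzymes were each lower in LEP_ICVN_1004 and LEP_ICVN_1016 than in LEP_ICVN_1001 and LEP_ICVN_1008.

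For Lss the LEP_ICVN levels were 10.56, 9.64, 11.22 and 10.55 (change −2.13 ± 0.30 SE, limma adjusted p = 9.3e-05). Msmo1 was at 11.86, 9.72, 12.19 and 9.90 in LEP_ICVN, with a change of −2.90 ± 0.42 (SE, limma adjusted p = 1.0e-04). Tm7sf2 was at 8.20, 7.42, 8.43 and 7.09 there, all detected, so LEP_ICV was at least 2.82-fold lower (limma adjusted p = 5.7e-05). For Nsdhl LEP_ICV was at least 3.55-fold lower, with LEP_ICVN levels of 8.41, 7.49, 8.63 and 7.93 (limma adjusted p = 1.0e-04). In none of these late enzymes did the groups overlap, and LEP_ICVN_1001 and LEP_ICVN_1008 were higher than LEP_ICVN_1004 in each.

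Sqle was at 10.48, 7.87, 11.17 and 7.96 in LEP_ICVN, with LEP_ICVN_1001 and LEP_ICVN_1008 far above LEP_ICVN_1004 and LEP_ICVN_1016 (change −2.29 ± 0.53 SE, limma adjusted p = 0.0081). Insig1 was at 12.15, 11.28, 12.69 and 12.15 in LEP_ICVN, all above the LEP_ICV mice (change −3.29 ± 0.60 SE, limma adjusted p = 1.0e-03). Stard4 was at 10.04, 11.03, 10.86 and 10.64 in LEP_ICVN, also with no overlap (change −2.25 ± 0.38 SE, limma adjusted p = 4.2e-04).
Insig2 in LEP_ICVN, at 12.91, 11.14, 12.32 and 10.73, overlapped LEP_ICV, as did Scap, at 8.56, 10.56, 8.74 and 10.68. Abcg5 was at 12.16, 12.41, 12.12 and 12.37 in LEP_ICVN, and Scarb1 was not detected there.

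The contrast was also read within each background class. With LEP_ICV_1017 and LEP_ICV_1019 against LEP_ICVN_1001 and LEP_ICVN_1008, 17 genes were lower in LEP_ICV, where 3.53% of all genes were, and the median change was −2.46. With LEP_ICV_1003 and LEP_ICV_1014 against LEP_ICVN_1004 and LEP_ICVN_1016, the median change was −1.09 and 0 genes passed in limma, where 0.251% of all genes passed. At an unadjusted p under 0.05 there were 13, and no share of all genes was taken at that threshold. Both within-class comparisons rest on 2 mice a group, and the difference between them was not tested. When only these 2 groups entered the fit 0 genes passed after adjustment in limma, with 16 at an unadjusted p under 0.05.

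The LEP_ICVN mice were themselves split by background class. LEP_ICVN_1001 and LEP_ICVN_1008 exceeded LEP_ICVN_1004 and LEP_ICVN_1016 by a median of 0.99 over the 24 genes, with 12 of them higher by over 1, where 17.7% of all genes were and the median of all genes was −0.08. Cyp51, singled out here after its values were seen, averaged 10.65 in LEP_ICVN_1001 and LEP_ICVN_1008 and 5.93 in LEP_ICVN_1004 and LEP_ICVN_1016. Sqle averaged 10.83 in the high-class pair and 7.92 in the low-class pair, and Msmo1 12.02 in the high-class pair and 9.81 in the low-class pair. Scap ran the other way, at 8.65 in the high-class pair and 10.62 in the low-class pair. Within LEP_ICV the median gap between classes was −0.12 over the 24 genes. The part of class in these values was not tested.

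LEP_ICVN itself was set against VEH_ICV, and 0 of the 24 genes passed in limma, with 4 at an unadjusted p under 0.05 and 0% of all tested genes called. The study's lumi values also gave 0, with 5 at an unadjusted p under 0.05. The median change was 0.34 over the 24 genes. Cyp51 had the largest estimate, 2.30 ± 0.85 (SE, limma adjusted p = 0.16). The comparison shares VEH_ICV with the first one and LEP_ICVN with the second.

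With leptin under the skin some late enzymes were higher than with vehicle and some early ones lower, on arrays that also differed in background class. Against VEH_SQ, 4 genes were higher in LEP_SQ and 3 were lower, 7 of 24, where 40.2% of all tested genes were called, 1525 of them higher and 1677 lower. The share is below that of all genes. The higher genes, Sqle, Cyp51, Msmo1 and Ebp, are all late enzymes, and the lower ones are Acat2, Idi1 and Scap. With each array centred on its median instead of quantile normalized, 5 genes were higher and 1 lower, and the median of all tested probes then stood at 0.62. The median change was −0.55 in the early enzymes and 0.89 in the late enzymes, against −0.04 over all genes. With class as a block 0 of the 24 genes passed in limma, with 6 at an unadjusted p under 0.05 and 0.276% of all genes called, and the medians were −0.90 in the early and −0.20 in the late enzymes.

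Acat2 was at 9.55, 9.72, 10.05 and 9.48 in LEP_SQ, against 10.46, 10.64, 10.34 and 10.09 in VEH_SQ. The groups just missed each other (change −0.68 ± 0.24 SE, limma adjusted p = 0.026), and median centring turned the estimate to 0.04. Idi1 averaged 8.68 ± 0.59 in LEP_SQ and 10.24 ± 0.30 in VEH_SQ (SD, n = 4 each; change −1.55 ± 0.57 SE, limma adjusted p = 0.034), while the block turned the estimate to 0.21. Mvd was at 7.57, 9.08, 8.76 and 7.33 in LEP_SQ, against 9.38, 9.21, 9.20 and 9.11 in VEH_SQ, a change of −1.04 that did not pass (limma adjusted p = 0.1). Pmvk, at 6.57, 6.80, 7.69 and 6.94 in LEP_SQ, against 7.28, 7.75, 6.69 and 6.93 in VEH_SQ, overlapped.

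Sqle was at 10.53, 10.43, 10.83 and 10.29 in LEP_SQ, against 8.95, 8.01, 8.44 and 8.67 in VEH_SQ. Every LEP_SQ mouse was above every VEH_SQ mouse, by 2.01 ± 0.53 (SE, limma adjusted p = 0.0073), and by 0.67 with the block (limma adjusted p = 0.85). Msmo1 was at 11.46, 11.69, 12.35 and 11.48 in LEP_SQ, against 10.83, 10.11, 10.53 and 10.40 in VEH_SQ, again with no overlap (change 1.28 ± 0.42 SE, limma adjusted p = 0.02, and 0.28 with the block). For Cyp51 the change was 4.21 ± 0.85 (SE, limma adjusted p = 0.0022), with 4 of 4 LEP_SQ arrays and 2 of 4 VEH_SQ arrays detected, and 1.58 with the block (limma adjusted p = 0.74). Ebp changed by 1.30 ± 0.39 (SE, limma adjusted p = 0.013), and by 0.41 with the block.

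These 4 late enzymes were also higher in the high-class LEP_ICVN_1001 and LEP_ICVN_1008 than in the low-class LEP_ICVN_1004 and LEP_ICVN_1016, Ebp for one at 12.47 in the high-class pair and 10.60 in the low-class pair. In LEP_ICV, high-class minus low-class was −0.24 for Sqle, −0.21 for Msmo1, −0.10 for Ebp and 0.52 for Cyp51, and the classes overlapped for each. The other late enzymes were not called. Lss was at 9.48, 10.34, 9.86 and 9.33 in LEP_SQ, against 10.67, 10.33, 10.41 and 10.46 in VEH_SQ (change −0.72 ± 0.30 SE, limma adjusted p = 0.06). Tm7sf2 was at 6.91, 7.75, 7.52 and 6.94 in LEP_SQ, against 8.37, 8.11, 7.74 and 7.25 in VEH_SQ, and Nsdhl's brightest probe at 7.43, 8.35, 8.19 and 7.14 in LEP_SQ, against 8.54, 8.66, 8.17 and 8.10 in VEH_SQ. Both overlapped between groups, with estimates of −0.59 each. Hsd17b7, Sc5d and Dhcr7 had estimates of 0.14, 1.20 and 0.59, and Hmgcs1 and Fdps, of the early enzymes, −0.42 and 0.63, of which Hsd17b7, Sc5d and Fdps changed sign with the block (−0.67, −0.89 and −0.79).

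Scap was at 8.43, 8.98, 8.56 and 8.75 in LEP_SQ, against 10.33, 10.82, 10.31 and 10.49 in VEH_SQ, far apart in every mouse (change −1.81 ± 0.45 SE, limma adjusted p = 0.0055). Its low levels lie on high-class arrays in LEP_ICVN as well, and with the block the change was −0.25 (limma adjusted p = 0.92). Insig1's brightest probe was at 11.67, 12.38, 11.92 and 12.11 in LEP_SQ, against 12.84, 10.58, 12.05 and 12.16 in VEH_SQ, with full overlap (change 0.11 ± 0.60 SE). Insig2 was at 11.73, 11.85, 12.31 and 12.03 in LEP_SQ, against 11.03, 11.44, 11.16 and 10.49 in VEH_SQ, which did not overlap but did not pass (change 0.95 ± 0.50 SE, limma adjusted p = 0.12, and −0.41 with the block).
Stard4 was at 10.44, 11.22, 11.34 and 10.43 in LEP_SQ, against 11.68, 9.90, 10.77 and 11.32 in VEH_SQ, and Abcg5 at 12.79, 12.37, 12.58 and 12.26 in LEP_SQ, against 12.20, 11.96, 12.44 and 12.39 in VEH_SQ. Both overlapped, with changes of −0.06 and 0.26. Scarb1 was detected in LEP_SQ_1039 alone of these 8 mice.

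The 2 infusions were compared directly as the LEP_ICV effect minus the LEP_SQ effect, each against its own vehicle. Of the 24 genes, 5 passed in limma, all with a more negative effect of the ventricular infusion, where 1.72% of all tested genes passed and 0.803% in that direction, and 17 were at an unadjusted p under 0.05. They were Msmo1 (−3.69 ± 0.59 SE, limma adjusted p = 0.0038), Sqle (−3.49 ± 0.76 SE, 0.019), Dhcr7 (−3.01 ± 0.76 SE, 0.045), Stard4 (−2.90 ± 0.53 SE, 0.007) and Nsdhl (−1.96 ± 0.44 SE, 0.024). With the block, Msmo1, Stard4 and Sqle still passed (limma adjusted p = 0.0087, 0.013 and 0.049), and Nsdhl and Dhcr7 did not (0.057 and 0.079), while 1.24% of all genes did. Route, dose and weight loss differ together between these groups and cannot be told apart, and background class coincides with group in the LEP_SQ effect.

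Against lean liver, vehicle-treated ob/ob liver differed in 13 of the 24 genes, 3 higher and 10 lower, where 67.3% of all tested genes were called, 35.4% higher and 31.9% lower. The share called is below that of all genes. All 8 vehicle arrays were of the low class and all 6 B6 arrays of the high class, and with class as a block 1 gene was called, Scarb1, where 7.86% of all genes were. Scarb1 passed the detection filter through B6, with 5 of its 7 detected arrays there, so it had to be high in B6 to be tested, and its calls against B6 are not read as results. With median centring 2 genes were higher and 18 lower, while the median of all tested probes stood at −0.74. Scarb1 passed detection in no vehicle-treated ob/ob mouse, where its readings were 5.33, 5.03, 5.06 and 5.13 in VEH_SQ and 5.49, 4.98, 5.29 and 5.29 in VEH_ICV. In B6 it was detected in 5 of 6 mice, at 6.16, 6.71 and 6.83 as the lowest, median and highest, and no fold is given. 

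The late enzymes were lower in vehicle-treated ob/ob liver in 7 of 10 cases, where 31.9% of all tested genes were lower. Their median was −1.24 in the model of groups. With the block the median was −0.50 and 0 of the 10 passed, and class and group cannot be told apart here. Cyp51 stood out, with B6 levels of 10.39, 11.39 and 12.12 (lowest, median and highest) and a change of −5.21 ± 0.65 (SE, limma adjusted p = 6.9e-07), which was −2.59 with the block (limma adjusted p = 0.062). Its probe was detected on 2 of 4 VEH_SQ arrays and 1 of 4 VEH_ICV arrays, and with the lumi values the change was −3.15. Msmo1 reached 11.08, 11.98 and 12.34 in B6 (change −1.47 ± 0.32 SE, limma adjusted p = 3.5e-04, and −0.47 with the block). Sqle reached 10.09, 11.06 and 11.70 in B6 (change −2.38 ± 0.41 SE, limma adjusted p = 2.7e-05, and −1.05 with the block). Neither enzyme overlapped between vehicle-treated ob/ob and B6 mice. Lss (10.48, 11.22 and 11.78 in B6) and Tm7sf2 (8.19, 8.64 and 8.95 in B6) overlapped, with changes of −0.57 and −1.02 (limma adjusted p = 0.032 and 5.2e-04). Ebp and Sc5d were lower too, with changes of −1.48 and −1.62 (limma adjusted p = 1.5e-04 and 0.0027), and the block turned the estimate of Sc5d to 0.48. Nsdhl's brightest probe, Hsd17b7 and Dhcr7 were not called.

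The early enzymes were mixed in ob/ob liver. Idi1 was higher, at 2.81 ± 0.44 (SE, limma adjusted p = 9.1e-06), with 10.24 ± 0.30 in VEH_SQ and 10.22 ± 0.19 in VEH_ICV, against 7.42 ± 0.58 in B6 (SD, n = 4, 4 and 6), and the block reduced the difference to 1.05 (limma adjusted p = 0.26). Pmvk was lower, with B6 levels of 8.03, 8.65 and 9.24 and no overlap (change −1.63 ± 0.28 SE, limma adjusted p = 3.2e-05, and −0.73 with the block). Acat2 (9.95, 10.30 and 10.78 in B6) and Mvd (8.30, 9.98 and 10.62 in B6) overlapped, with changes of 0.08 and −0.37. Fdps, at −0.96 (limma adjusted p = 0.049), turned to 0.45 with the block, and Hmgcs1 was not called.

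Scap was higher in vehicle-treated ob/ob liver, since its B6 levels were 8.05, 8.50 and 8.84 (change 2.09 ± 0.34 SE, limma adjusted p = 1.7e-05, and 0.53 with the block). Insig1's brightest probe reached 8.70, 10.45 and 11.97 in B6, an SD of 1.16 that was exceeded only in LEP_ICV, at 1.25 (change 1.23 ± 0.46 SE, limma adjusted p = 0.021, and 0.085 without B6_5543). Stard4 reached 10.34, 11.17 and 11.38 in B6, Abcg5 11.26, 12.62 and 13.41, and Insig2 9.38, 10.77 and 11.44. Each of these overlapped the vehicle-treated mice, with changes of 0.06, −0.20 and 0.25.

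LEP_SQ and B6 lie in the same background class, so class does not separate them. Between them 5 of the 24 genes were lower in LEP_SQ and none was higher, where 7.28% of all tested genes were called and 2.25% lower. The 5 were Pmvk (−1.67 ± 0.34 SE, limma adjusted p = 0.0039), Lss (−1.40 ± 0.28 SE, 0.0032), Tm7sf2 (−1.29 ± 0.28 SE, 0.0057), Mvd (−1.53 ± 0.47 SE, 0.048), and Scarb1, which was detected on 1 of 4 LEP_SQ arrays and is not read as a result for the reason given above. With the block 8 genes passed, 2 higher and 6 lower, where 12.7% of all genes passed. Fitted on the high-class arrays alone, where 12.9% of all genes were called, Acat2 was also lower, Idi1 and Insig2 were higher, and Scarb1 did not pass. Cyp51, Sqle and Msmo1 differed from B6 by −0.87, −0.40 and −0.17, with 95% intervals of −2.47 to 0.74, −1.41 to 0.61 and −0.96 to 0.62.

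LEP_ICV lay further from lean liver. Of the 24 genes 18 were lower than in B6 and 1, Scap, was higher, where 42.8% of all tested genes were called and 18.4% lower. All 10 late enzymes and 5 of 6 early enzymes were among the lower, as was Scarb1, which the filter favoured. The changes were −5.55 ± 0.78 for Cyp51, −3.90 ± 0.38 for Msmo1, −3.84 ± 0.49 for Sqle and −3.81 ± 0.47 for Mvd (SE), and Tm7sf2 and Nsdhl were at least 4.87-fold and 4.15-fold lower. Cyp51 and Mvd were each detected on 1 of 4 LEP_ICV arrays, and with the lumi values their changes were −3.20 and −1.73. The median change was −1.86, against 0.10 over all genes. With the block 19 genes were again called, where 24.9% of all genes were, with Idi1 and Insig2 added and Scap (0.24, limma adjusted p = 0.63) and Sc5d lost. The genes not called in the model of groups were Idi1, Insig2, Srebf2, Abcg5 and Abcg8.

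**Figure D3:**
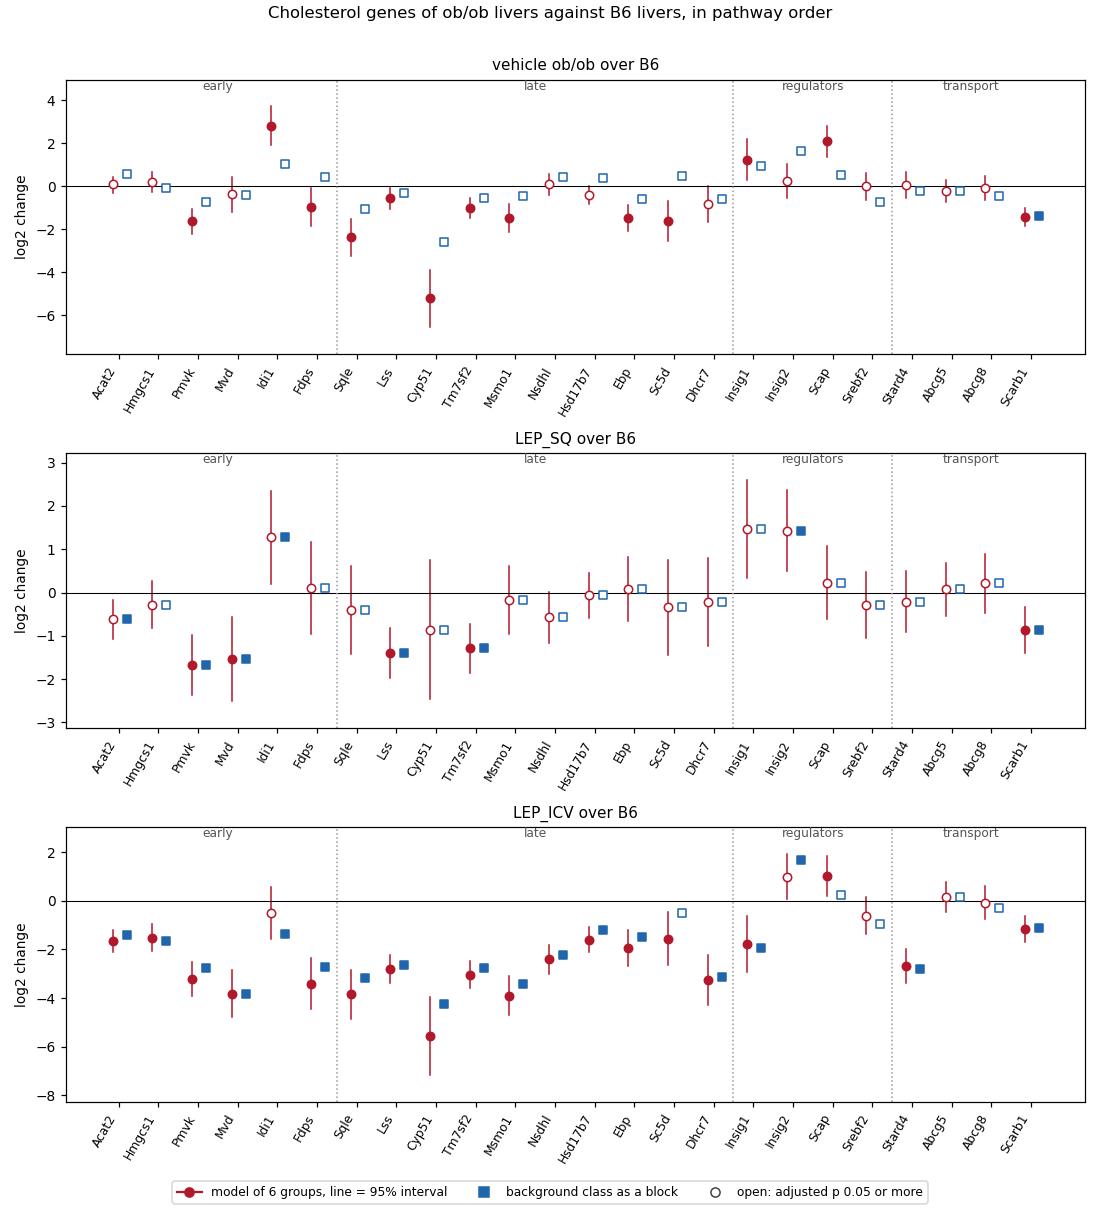
Log2 change (y axis) of the 24 tested genes (x axis, in pathway order) in vehicle-treated ob/ob over B6, LEP_SQ over B6 and LEP_ICV over B6, with circles for the model of 6 groups and its 95% interval, squares for background class as a block, and filled symbols for an adjusted p under 0.05. For vehicle-treated ob/ob only the square of Scarb1 is filled, and in LEP_ICV over B6 all 10 late enzymes lie below 0 in both fits.

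Sqle, Nsdhl, Insig1 and Insig2 each had several tested probes, which disagreed in direction for all but Sqle. Each gene above is represented by its brightest probe. The 3 dimmer Nsdhl probes were not detected on any LEP_ICV, VEH_SQ or VEH_ICV array, so they carry no measurement of the ventricular effect. Against B6, where 5 of 6 mice were detected by each, vehicle-treated ob/ob was at least 1.82-fold, 2.35-fold and 1.19-fold lower, where the brightest probe changed by 0.09. These probes passed the filter mainly through B6 and LEP_SQ, so the differences are not read as results, and with the block none of the 3 passed (limma adjusted p = 0.32, 0.19 and 0.41).

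The 2 dimmer Insig1 probes, called A and B here, also went with background class. Probe A averaged 7.79 ± 0.50 in LEP_SQ and 6.27 ± 0.79 in VEH_SQ (SD, n = 4 each; change 1.51, limma adjusted p = 0.026), and the block turned the change to −0.09 (0.99). Probe B was not detected in VEH_SQ, and LEP_SQ was at least 1.88-fold higher (limma adjusted p = 0.006, and 0.87 with the block), where the brightest probe gave 0.11. In LEP_ICV over VEH_ICV probe A, detected on 1 of these 8 arrays, changed by −0.82 (limma adjusted p = 0.25), and by −1.62 with the block (0.025). Against B6, vehicle-treated ob/ob was lower, with a change of −2.39 in probe A and at least 2.21-fold in probe B, where the brightest probe was higher by 1.23. Probe B was detected only in B6, LEP_SQ and LEP_ICVN, and probe A mainly there. Both thus passed the filter through groups where they were high. Their differences of B6 and LEP_SQ from vehicle-treated mice are not read as results. With the block none of the 3 Insig1 probes passed against B6 (limma adjusted p = 0.37, 0.31 and 0.47 for the brightest). The level of Insig1 in ob/ob against lean liver therefore has no settled direction here.

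The dimmer Sqle probe was detected on 10 arrays, 3 of 4 in LEP_SQ and 0 of 4 in VEH_SQ, so no fold is given there. It was at least 2.6-fold lower in vehicle-treated mice than in B6, which did not pass with the block (limma adjusted p = 0.073), and it was not detected in LEP_ICV or VEH_ICV. Since the probe passed the filter only through B6, LEP_SQ and LEP_ICVN, this difference is not read as a result. The second Insig2 probe passed where the brightest did not, at 2.08 in LEP_SQ over VEH_SQ (limma adjusted p = 0.029), and was lower in vehicle-treated mice than in lean B6 (−1.30, limma adjusted p = 0.044). With the block both calls were lost and both signs turned, to −0.36 and 1.13 (limma adjusted p = 0.94 and 0.33). A further Insig2 probe was detected on 4 arrays, so its changes are not read as results.

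**Figure D4:**
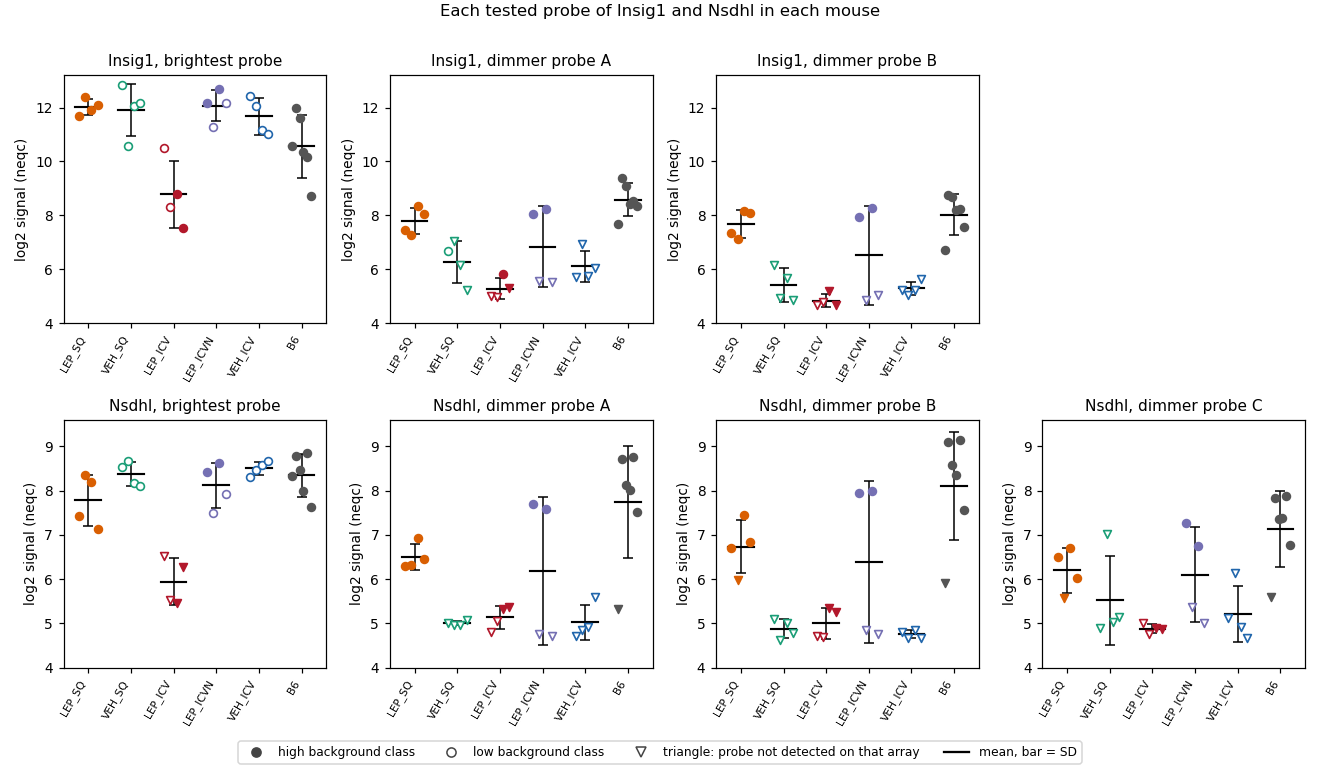
Normalized log2 intensity (y axis) of each tested probe of Insig1 and Nsdhl in every mouse of the 6 groups (x axis); filled points are high-class arrays, open points low-class arrays and triangles are not detected, with bars for the mean ± SD. The brightest probe of each gene is lowest in LEP_ICV, while the dimmer probes are lower in both vehicle groups than in B6.

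Other genes of cholesterol handling were read from the same fit. Of the 4 genes that supply its substrate 3 were lower in LEP_ICV than in VEH_ICV, where 25.2% of all tested genes were called and 11.6% lower. Acss2, which makes acetyl-CoA from acetate, averaged 9.67 ± 0.51 in LEP_ICV and 12.79 ± 0.20 in VEH_ICV (SD, n = 4 each; change −3.12 ± 0.40 SE, limma adjusted p = 1.2e-05). Slc25a1, the mitochondrial citrate carrier, averaged 11.19 ± 0.47 in LEP_ICV and 12.99 ± 0.18 in VEH_ICV (change −1.80 ± 0.25 SE, limma adjusted p = 3.4e-05), and was also lower in LEP_SQ than in VEH_SQ (−1.19 ± 0.25 SE, 0.0027), a call that the block ended (−0.55, 0.7). Among genes of the isoprenoid branches 5 of 7 were tested and 1 was higher in LEP_ICV, Rabggtb, a subunit of the Rab prenyl transferase (1.23 ± 0.24 SE, limma adjusted p = 0.001). Coq2, of ubiquinone synthesis, changed by 0.26 and was not called, and 1 of 5 is below the share of all genes.

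Of 9 genes of sterol storage and trafficking 6 were tested, of which 1 was higher and 3 lower in LEP_ICV. This is above the share of all genes, 25.2% called and 11.6% lower. With the block 0 of the 6 passed, where 12.8% of all genes did. Lcat, which esterifies plasma cholesterol, and Npc2, which binds sterol in the lysosome, are named for the smallest p of the moderated F in this list. Neither was called in LEP_ICV over VEH_ICV (limma adjusted p = 0.82 and 0.51). Of 12 genes of SREBP processing, enzyme degradation and electron supply 7 were tested and 1 was lower, Cyb5r3, a reductase that supplies electrons to sterol desaturation (−0.91 ± 0.18 SE, limma adjusted p = 9.3e-04). Tmem97, the sigma-2 receptor, changed by 0.37 and was not called, and 1 of 7 is again below the share of all genes. Acss2, Slc25a1 and Cyb5r3 are also in the study's selected list.

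Markers of cell types were read in the same comparison, LEP_ICV over VEH_ICV. There 25.2% of all tested genes were called, 1083 of 7968 higher and 11.6% lower. With the block 12.8% were called, 583 of 7968 higher and 5.43% lower. Within the low class 219 of 7968 were higher and 2.61% lower. Of 7 macrophage and Kupffer cell markers 4 were tested and 3 were higher in LEP_ICV, 4 with the block and 1 within the low class. Their summed signal was 5268 to 11274 in LEP_ICV and 3084 to 5332 in VEH_ICV. Of 5 endothelial markers 4 were tested and 2 were higher, with a summed signal of 10296 to 17226 in LEP_ICV and 7948 to 9381 in VEH_ICV, but 0 of them passed with the block or within the low class in limma, with 3 and 1 at an unadjusted p under 0.05. Of 5 hepatocyte markers 4 were tested and 1, Alb, was lower, near the share of all genes called, and 1 within the low class. With the block 2 were lower, Alb (−1.68, limma adjusted p = 0.015) and Cps1 (−2.4, 0.015). The summed signal of the 4 was 51408 to 102004 in LEP_ICV and 94620 to 105613 in VEH_ICV. The stellate, bile duct and lymphocyte markers that were tested did not pass, and the adipocyte markers Adipoq and Plin1 were below the detection filter. The part of these cells in the cholesterol genes was not tested.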

How the data were processed

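Liver RNA of each of 26 mice was measured on 1 Illumina MouseRef-8 v2.0 BeadChip array. The probe intensities that the authors deposited were summarised in BeadStudio 2.0, with no background correction apparent, for 25697 probes. Each deposited intensity comes with a detection score between 0 and 1, which is higher for brighter probes; subtracting it from 1 gave the detection p used here. Log2 values from lumi, deposited by the authors after variance stabilization and a robust spline normalization, served as an alternative. Which lumi version made them, and whether they were centred, is unknown from these sources, and the median of an array's values was 7.73 to 7.79.

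Background correction and quantile normalization of the intensities used neqc of limma 3.58.1 in R 4.3.3, with an offset of 16, which gave 11001 tested probes. Groups and mouse numbers came from the sample labels. Comparisons were contrasts in 1 limma model of 6 groups, adjusted by Benjamini-Hochberg over all tested probes, with a call at an adjusted p under 0.05. Shares of all genes are at that threshold. Counts at an unadjusted p under 0.05 have no such share beside them and are not calls. The brightest tested probe stood for a gene. A fold against a group with no detected array is a lower bound, from the higher of the lowest detected signal and the probe's own on each array. The p-values set a difference against the spread between mice within groups, and precision is limited by how many arrays there are. With 1 array a mouse, mouse and array are not told apart in that spread. In the model of groups it also holds the background classes within LEP_ICV and LEP_ICVN. The highest correlation between 2 arrays was 0.98996, so no array was counted as a copy.

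Of the probes, 23978 had 1 symbol in the platform annotation, 0 several and 1719 none, 23971 matched a RefSeq gene and 8 symbols were updated. A further 17 probes, that of Acat2 among them, were named through the study's gene sheet, which their deposited values matched within 0.001. Values of every ob/ob mouse, from the brightest probe, are given for the 3 genes of each role with the smallest p of the moderated F. The same holds for genes whose probes disagree. Scarb1 is an exception, with readings in the vehicle groups only. For B6 the lowest, median and highest levels are given, except for Nsdhl. Of the other pathway genes at most 2 of each list are named. The 28 genes, the lists, the background classes and the tests were chosen with earlier results of these data known. Alternatives were other background corrections, scalings, offsets and probe filters, array weights, class as a block or within class, only the groups compared, other probes of a gene, and leaving out each mouse. The steps were tested on simulated data.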

Additional observations from a re-analysis of the deposited data

Results flagged for a closer look

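Of 144 groups of values, 6 groups for each of the 24 genes, 5 held a mouse far from the others of its group by Dixon's test, which chance alone gives in about 1 group of 20. Msmo1 was 11.08 in B6_2021, against 11.93 to 12.34 in the other B6 mice, and Ebp was 11.40 in the same mouse, against 12.18 to 12.41. Stard4 was 10.34 in B6_5543, against 11.11 to 11.38 in the others. Dhcr7 was 7.69 in VEH_SQ_1034, against 9.29 to 9.52 in the others. Idi1 was 10.50 in VEH_ICV_1011, against 10.11 to 10.16 in the others.

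The LEP_ICV effect minus the LEP_SQ effect passed limma's test for 5 genes: Msmo1 at −3.69, Sqle at −3.49, Dhcr7 at −3.01, Stard4 at −2.90 and Nsdhl at −1.96. Route, dose, weight loss and, in the LEP_SQ effect, background class are not told apart in this difference. With the block Nsdhl (limma adjusted p = 0.057) and Dhcr7 did not pass, and with the lumi values 3 of the calls were lost. The Dhcr7 difference was no longer called in 18 of 26 fits that each left out 1 mouse.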

How the results depend on the processing

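No paired analysis was possible because each mouse carries a number of its own. In LEP_SQ over VEH_SQ the 7 calls became 14 with array weights, 0 with class as a block, 4 (of 13 tested) on probes detected on all arrays and 12 with only the groups compared, and 4 to 8 when 1 mouse was left out (4 without VEH_SQ_1034). In LEP_ICV over VEH_ICV the 15 calls became 8 on probes detected on all arrays, 9 with median scaling and 13 to 17 without 1 mouse, and the lumi values gave 12, without Pmvk, Sqle and Tm7sf2. In LEP_ICVN over VEH_ICV the 0 calls became 14 with array weights, 12 of them higher. Leaving out 1 mouse gave 0 to 4 calls there (Cyp51, Ebp, Insig2 and Scap without LEP_ICVN_1016). No share of all genes was taken with array weights, so whether these 14 calls exceed it is not known. The same holds for the other alternative settings in this section, except the block and the fits within a class. In LEP_ICV over LEP_ICVN the 16 calls became 9 on probes detected on all arrays, 0 with only the groups compared, 0 within the low class and 15 to 17 without 1 mouse. In vehicle-treated ob/ob over B6 the 13 calls became 1 with the block, 6 on probes detected on all arrays, 20 with median scaling and 11 to 13 without 1 mouse.

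In LEP_SQ over B6 the 5 calls became 10 with array weights, 8 with the block, 2 on probes detected on all arrays, 3 with median scaling, 3 with no probe filter, 8 with only the groups compared and 3 to 7 without 1 mouse (3 without B6_2029 or B6_5542, or LEP_SQ_1029 or LEP_SQ_1041). In LEP_ICV over B6 the 19 calls became 10 on probes detected on all arrays and 17 to 19 without 1 mouse. For the LEP_ICV effect minus the LEP_SQ effect the 5 calls became 17 with array weights, 2 with the lumi values, 3 with the block, 3 on probes detected on all arrays, 1 with median scaling, 3 with no background correction and 2 to 10 without 1 mouse (10 without LEP_ICV_1003, 8 without LEP_ICV_1017, 2 without VEH_ICV_1011, and 3 without LEP_ICV_1014, LEP_SQ_1032 or LEP_SQ_1039, or VEH_SQ_1034, VEH_SQ_1035 or VEH_SQ_1040). By the F test the 21 calls became 11 on probes detected on all arrays and 20 to 21 without 1 mouse. Probes detected on all arrays covered 13 of the 24 genes; for the other changes the cause was not tested.

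Among estimates called in at least 1 of the settings compared, signs turned in vehicle-treated ob/ob over B6 with median scaling for Acat2 (−0.75), Nsdhl (−0.93) and Srebf2 (−0.84), with the block for Fdps (0.45) and Sc5d (0.48), and with other probes for Nsdhl (−2.73, −3.29 and −1.77), Insig1 (−2.39 and −2.68) and Insig2 (−1.30). In LEP_SQ over VEH_SQ they turned for Acat2 with median scaling (0.04), Idi1 with the block (0.21) and Nsdhl with another probe (1.85), and in LEP_ICV over VEH_ICV for Nsdhl with 2 probes not detected there (0.11 and 0.25). In these comparisons the block also turned signs of estimates called in neither fit. They were Fdps, Hsd17b7, Sc5d, Insig2, Srebf2 and Stard4 in LEP_SQ over VEH_SQ, Hmgcs1, Hsd17b7 and Stard4 in vehicle-treated ob/ob over B6, and Sc5d and Abcg8 in LEP_ICV over VEH_ICV. Such turns in other comparisons are not listed, for example in LEP_ICVN over VEH_ICV for Pmvk (0.36 to −0.08) and Sc5d (0.60 to −0.44). The values of the dimmer Nsdhl probes and of Insig1 at −2.68 are fitted against arrays where the probe was not detected. Median scaling moved the median of all tested probes to 0.49 in LEP_ICV over VEH_ICV, where that of the 24 genes was −0.96.

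Single calls near the threshold in the model of 6 groups were lost when 1 of 26 mice was left out: Fdps in vehicle-treated ob/ob over B6 in 13 fits, Mvd in LEP_SQ over B6 in 16 and Scap in LEP_ICV over B6 in 19. Enzymes near the detection limit, such as Cyp51, Sc5d and Pmvk, and Mvd, Tm7sf2 and Nsdhl in LEP_ICV, have levels that rest on the background correction.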
